A study of Mus musculus with 7 samples.

Results

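The mouse mitochondrial genome carries 37 genes, which are the rows of the deposited count tables whose symbol begins with mt-. They are 13 mRNA genes, 2 rRNA genes and 22 tRNA genes, out of 50600 genes counted in each library. RNA was sequenced from 4 mammary tumours of ECD transgenic mice and from 3 control mammary glands. By histology, tumours 1a and 1b were adenosquamous carcinomas, tumour 3 a spindle cell carcinoma and tumour 4 a papillary carcinoma. Ecd (ecdysoneless) is a cell cycle regulator, and the sources used here do not give the promoter or species of the transgene, the strain or the ages of the mice. The labels give no genotype for the glands beyond calling them control. From the labels it cannot be told whether the tumours numbered 1a and 1b grew in the same animal.

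Mitochondrial DNA is a small circle that is transcribed from both strands into long precursors. The heavy-strand precursor holds both rRNAs and most mRNAs, and the light-strand precursor holds mt-Nd6 and several tRNAs. Most mRNAs and both rRNAs lie beside tRNAs, which are cut out to release them. The mRNAs encode core subunits of respiratory complexes I, III and IV and of the ATP synthase, complex V. The other subunits of these complexes, all of complex II, and the proteins that copy, transcribe and translate mitochondrial DNA are encoded in the nucleus.

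For 7 of the 13 mRNA genes a near-identical nuclear copy is also counted, so these sequences come first. A block on mouse chromosome 1, at chr1:24611535-24616197 of GRCm38 on the minus strand, holds 7 annotated pseudogenes in the order of the mitochondrial genes they copy. Each matched its mitochondrial gene at 99% identity or more over at least 90% of the pseudogene. The pairs are mt-Co1 with Gm29216, mt-Co2 with Gm28661, mt-Atp6 with Gm10925, mt-Co3 with Gm28437, mt-Nd3 with Gm28438, mt-Nd4l with Gm10222 and mt-Nd4 with Gm28439. Over the aligned stretch 5 of the 7 copies had no base difference. For mt-Co1, at chrM:5328-6872 on the plus strand, the copy covers the last 483 bases, and the 1 difference is A1066T, counted from 1 at the gene's first base, with the mitochondrial base first. For mt-Nd3, at chrM:9459-9806 on the plus strand, the 1 difference is T3C. These 4 stretches show how little separates gene and copy, with the differing base in capitals.
mt-Co1: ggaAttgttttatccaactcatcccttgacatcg
Gm29216: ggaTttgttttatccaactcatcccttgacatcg
mt-Nd3: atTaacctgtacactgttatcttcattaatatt
Gm28438: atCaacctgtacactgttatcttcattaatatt

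For mt-Co2, at chrM:7013-7696 on the plus strand, the copy Gm28661 at chr1:24614885-24615565 was the same over 681 bases and ended before the stop codon, shown in capitals in the gene's 3′ end. A read inside the shared 681 bases has the same letters in both places.
mt-Co2: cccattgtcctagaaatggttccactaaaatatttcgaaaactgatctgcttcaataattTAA
Gm28661: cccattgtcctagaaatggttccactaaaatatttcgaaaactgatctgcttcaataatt

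Neighbouring mitochondrial genes also share bases. The end of mt-Atp8 and the start of mt-Atp6 share 43 bases on the plus strand, in capitals within chrM:7912-7984. The end of mt-Nd4l and the start of mt-Nd4 share 7 bases, in capitals within chrM:10152-10188. mt-Nd5 and mt-Nd6 share 14 bases on opposite strands. The library kit does not mark strand, so reads of mt-Nd6 cannot be told apart from reads of the opposite strand across the whole gene.
mt-Atp8 and mt-Atp6: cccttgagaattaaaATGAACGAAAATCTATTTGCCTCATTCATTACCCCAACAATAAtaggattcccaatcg
mt-Nd4l and mt-Nd4: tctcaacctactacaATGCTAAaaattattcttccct

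The libraries held 5420572 to 28638194 counts in tumours and 5148436 to 35631302 in glands. The exact 95% binomial interval of a library share below is no wider than 0.0429 percentage points either way, which is counting error alone. Mouse Ecd was at 15.9 to 21.8 CPM in tumours and 12.7 to 19.1 CPM in glands, with an edgeR adjusted p of 0.463. All 6 luminal epithelial markers had counts in every library and summed to 289 to 2295 CPM in tumours and 233.3 to 477.8 CPM in glands. Of these, Krt8 was higher in every tumour than in any gland, and Krt18, Krt19, Epcam, Cdh1 and Elf5 overlapped. CPM are counts per 1000000 of the TMM-scaled library size, and because the scaling factors were 1.006 to 1.605 in tumours and 0.5509 to 0.8934 in glands, CPM do not sum to that total within a library.

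Mitochondrial genes took a smaller share of every tumour library than of any gland library. The share was 18.3%, 23.8%, 19.9% and 32.6% in tumours 1a, 1b, 3 and 4, against 64.8%, 48.4% and 54.9% in glands 1, 2 and 3. Papillary tumour 4 was the highest of the tumours and gland 2 the lowest of the glands. The mean was 23.7% ± 6.39 in tumours and 56.0% ± 8.29 in glands (SD, n = 4 and 3), a difference of -32.4 percentage points. The exact two-sided permutation test gave p = 0.0571, the smallest that 35 arrangements of 4 against 3 libraries allow, so no such test here can pass 0.05.

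Most mitochondrial counts were rRNA. mt-Rnr1 and mt-Rnr2 together made up 16.1%, 21.4%, 17.8% and 30.1% of counts in tumours 1a, 1b, 3 and 4, against 55.5%, 37.6% and 47.7% in glands 1, 2 and 3. The 13 mRNAs made up 2.23%, 2.41%, 2.11% and 2.54% of counts in the tumours, against 9.34%, 10.8% and 7.20% in the glands. Every tumour lay below every gland for both classes, and the tumours were close to each other in mRNA share, with 2.32% ± 0.187 in tumours and 9.11% ± 1.81 in glands. With both rRNAs taken out of the library total, the share was 2.66%, 3.06%, 2.57% and 3.63% in the tumours, against 20.98%, 17.3% and 13.8% in the glands. These 4 shares form 1 family, and each gave exact permutation p = 0.0571, also after Benjamini-Hochberg adjustment.

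**Figure D1:**
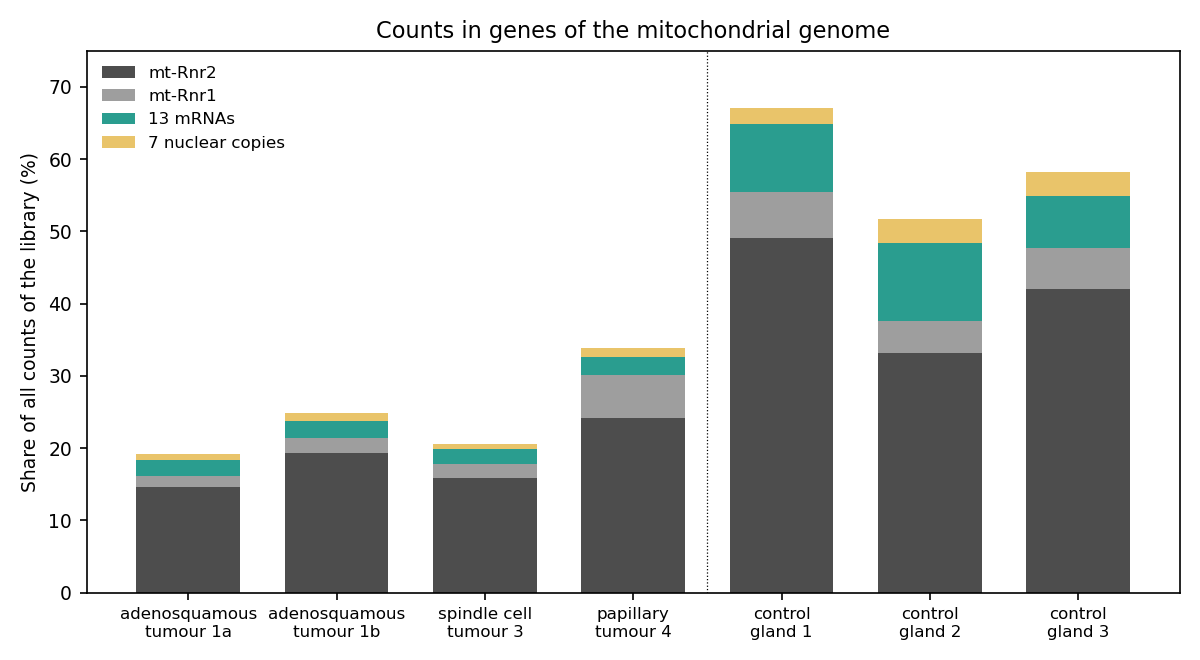
Share of all counts of each library (%, y axis) in mt-Rnr2, mt-Rnr1, the 13 mRNAs and the 7 nuclear copies, stacked, for 4 tumours (left) and 3 control glands (right). Without the copies the tumour bars reach 18.3% to 32.6% and the gland bars 48.4% to 64.8%; rRNA is the largest piece of every bar.

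Mammary glands lie in fat and next to skeletal muscle, and muscle and brown fat are rich in mitochondria, so the levels of their markers are given beside these shares. The 17 skeletal muscle markers summed to 840.4, 175.1, 15.96 and 10.6 CPM in tumours 1a, 1b, 3 and 4, against 56680, 104.5 and 89390 CPM in glands 1, 2 and 3. Of these markers, Myh1, Tnnt3, Tnnc2, Pvalb and Myoz1 were at 0 in spindle cell tumour 3 and Myoz1 in papillary tumour 4. Gland 2, with a mitochondrial share of 48.4%, had muscle markers within the range of the tumours. Its summed white and brown fat markers, given next, were the highest of the glands. The 12 white fat markers summed to 221.5, 137.1, 42.7 and 659.3 CPM in the tumours, against 4092, 8981 and 8150 CPM in the glands, and 9 of the 12 passed as lower in edgeR, where 4.57% of all genes did. Among them Lep, Plin4, Cidec and Adig were at 0 in tumour 1b, and Adipoq, Cidec, Cfd, Retn and Adig in tumour 3. The 6 brown fat markers summed to 79.7, 12.2, 3.25 and 101.8 CPM in the tumours, against 450.3, 487 and 113.4 CPM in the glands, with Ucp1 at 0 in tumours 3 and 4. Of the 6 brown fat and the 16 muscle markers tested 0 passed in edgeR. An unadjusted p under 0.05 was found for 2 and 16 of them, and for 4093 of all 14149 genes. The summed white fat markers were thus higher in each gland than in any tumour, although Pnpla2 alone overlapped, at 112.1 CPM in tumour 4 and 87.0 CPM in gland 1, and the part of fat and muscle in the mitochondrial shares was not tested. In RNA from whole tissue, fewer cells of a type and less RNA per cell cannot be told apart.

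All 15 mitochondrial mRNA and rRNA genes had counts enough to be tested, and all 15 had negative log2 fold changes in tumours against glands, a sign that 45.2% of the 14149 genes tested shared. By edgeR's quasi-likelihood test with Benjamini-Hochberg adjustment over all genes, 10 of the 15 were lower and 0 were higher, where 8.47% of all genes passed, 4.57% as lower and 3.9% as higher. At unadjusted p under 0.05 the count lower was 11 of 15, against 13.1% of all genes lower at that level. The 13 mRNAs had a median log2 fold change of -2.81, where the median of all genes was 0.12. Leaving out 1 library kept the median between -2.61 and -3.05 but cut the number that passed to 2 without gland 1, 3 without gland 2, 2 without gland 3, 2 without tumour 1a, 1 without tumour 1b, 2 without spindle cell tumour 3 and 8 without papillary tumour 4. Over all genes 647 were lower with every library, and 238, 384, 74, 530, 223, 342 and 774 in these fits, in the same order. Of the 10 genes lower with every library, as tabulated, mt-Atp6 passed in 7 of the 7 fits, mt-Nd2 in 5 and each of the others in 1. Most counts of mt-Atp6 stood on its nuclear copy, as given below. With the copies added, mt-Atp6 passed in only 1 of these fits, the one without papillary tumour 4. With gland 2 as the only control, which leaves 1 gland library, the median of the 13 mRNAs was -2.78.

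Complex I, NADH dehydrogenase, takes electrons from NADH into the respiratory chain and holds 7 of the mRNA products, and 5 of the 7 mRNAs were lower. mt-Nd1, a subunit of the membrane arm, was at 2571, 2829, 2066 and 3019 CPM in tumours 1a, 1b, 3 and 4, against 21017, 17285 and 16670 CPM in glands 1, 2 and 3. The tumours lay far below the glands with no overlap. The fold change was -2.81 on the log2 scale (SE 0.49, edgeR adjusted p = 0.0196), or 6.99-fold lower.

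mt-Nd2, a proton-pumping subunit, fell further, to 1317, 1410, 852 and 1691 CPM in tumours 1a, 1b, 3 and 4, against 16808, 15163 and 10938 CPM in glands 1, 2 and 3. Its log2 fold change was -3.44 (SE 0.51, edgeR adjusted p = 0.0128), or 10.9-fold lower. mt-Nd4, another pumping subunit, was at 1388, 1706, 1436 and 3640 CPM in the tumours, against 22938, 17259 and 12112 CPM in the glands. Papillary tumour 4 stood above the other tumours here, and no tumour reached a gland. The log2 fold change of mt-Nd4 was -3.09 (SE 0.61, edgeR adjusted p = 0.0270).

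mt-Nd5, the longest of the mRNA genes at 1824 bases, was at 1219, 1676, 1425 and 2021 CPM in tumours 1a, 1b, 3 and 4, against 13334, 11958 and 7585 CPM in glands 1, 2 and 3. Its log2 fold change was -2.79 (SE 0.48, edgeR adjusted p = 0.0185). mt-Nd6, the one mRNA read from the light strand, was at 90.7, 147, 130 and 85.1 CPM in the tumours, against 1614, 854 and 238 CPM in the glands. The glands spread widely and the tumours did not overlap them. The log2 fold change of mt-Nd6 was -2.99 (SE 0.62, edgeR adjusted p = 0.0302). It was -2.26 without gland 1 (edgeR adjusted p = 0.087), and with 1 library left out mt-Nd6 passed in 1 of 7 fits, the one without gland 3.

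The 2 shortest complex I mRNAs did not pass as tabulated, and both have a near-identical nuclear copy that also held counts. mt-Nd3, which encodes a subunit at the junction of the membrane arm and the arm that binds NADH, was at 26.6, 9.39, 45.9 and 77.7 CPM in tumours 1a, 1b, 3 and 4, against 100.5, 7.09 and 47.6 CPM in glands 1, 2 and 3. The groups overlapped, with a log2 fold change of -0.36 (SE 0.90, edgeR adjusted p = 0.819), and the sign was positive with limma-voom, at 0.45, and with library totals, at 0.73. mt-Nd4l, a small membrane subunit, was at 54.5, 26.4, 90.1 and 143 CPM in the tumours, against 111, 458 and 393 CPM in the glands. Papillary tumour 4 overlapped gland 1, and the log2 fold change was -2.03 (SE 0.66, edgeR adjusted p = 0.0981).

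Complex III, cytochrome bc1, has a single mitochondrial gene, mt-Cytb, the haem-bearing subunit that oxidises ubiquinol. mt-Cytb was at 2339, 2843, 2544 and 4719 CPM in tumours 1a, 1b, 3 and 4, against 31782, 20269 and 17567 CPM in glands 1, 2 and 3. All tumours lay below all glands. The log2 fold change was -2.90 (SE 0.58, edgeR adjusted p = 0.0281), or 7.46-fold lower.

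Complex IV, cytochrome c oxidase, passes electrons to oxygen, and its 3 mitochondrial subunits form the catalytic core. mt-Co1, which holds the oxygen-reducing site, was at 5139, 6146, 4301 and 8109 CPM in tumours 1a, 1b, 3 and 4, against 49200, 31292 and 41736 CPM in glands 1, 2 and 3. It had the highest level of the mRNAs per kilobase in both groups. The log2 fold change was -2.78 (SE 0.61, edgeR adjusted p = 0.0367).

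mt-Co3, a subunit of the same core, was at 528, 449, 466 and 558 CPM in tumours 1a, 1b, 3 and 4, against 6763, 1009 and 1805 CPM in glands 1, 2 and 3. Gland 1 was far above the other glands, and the tumours stayed below all 3. Its log2 fold change of -2.67 (SE 0.66, edgeR adjusted p = 0.0499) was the closest to the threshold of those that passed. It was -1.48 without gland 1 (edgeR adjusted p = 0.102) and -1.07 with gland 2 as the only control (edgeR adjusted p = 0.503), and with 1 library left out mt-Co3 passed in 1 of 7 fits, the one without gland 2. mt-Co2, which takes electrons from cytochrome c, was at 22.05, 0, 28.2 and 117 CPM in the tumours, against 0, 291 and 487 CPM in the glands. It was listed at 0 in tumour 1b and in gland 1, the groups overlapped, and the difference did not pass (log2 fold change -2.63, SE 1.96, edgeR adjusted p = 0.406).

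Complex V makes ATP, and both of its mitochondrial mRNAs were lower. mt-Atp6, a subunit of the proton channel, was at 180, 90.9, 217 and 224 CPM in tumours 1a, 1b, 3 and 4, against 2854, 3035 and 2811 CPM in glands 1, 2 and 3. Its log2 fold change as tabulated, -4.03 (SE 0.44, edgeR adjusted p = 0.00835), was the largest of the 15 genes. mt-Atp8, a small subunit of the membrane part, was at 296, 422, 258 and 894 CPM in the tumours, against 3524, 2428 and 3943 CPM in the glands. The tumours lay below the glands, papillary tumour 4 again the highest of them. The log2 fold change of mt-Atp8 was -2.82 (SE 0.55, edgeR adjusted p = 0.0263). It was -3.41 without papillary tumour 4 (edgeR adjusted p = 0.014), the 1 of 7 fits with a library left out in which mt-Atp8 passed.

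The rRNAs had smaller log2 fold changes than the median of the 13 mRNAs, -2.81, and neither passed in edgeR. Their SE were larger than those of the 10 mRNAs that passed. DESeq2 called both rRNAs lower, and limma-voom called mt-Rnr2 lower but not mt-Rnr1. mt-Rnr2, the large-subunit 16S rRNA, was at 99225, 142980, 104160 and 241150 CPM in tumours 1a, 1b, 3 and 4, against 893620, 373340 and 679000 CPM in glands 1, 2 and 3. The groups did not overlap, and the log2 fold change was -2.14 (SE 1.18, edgeR adjusted p = 0.265). mt-Rnr1, the small-subunit 12S rRNA, was at 10318, 14612, 12367 and 58921 CPM in the tumours, against 116780, 48578 and 91503 CPM in the glands. Papillary tumour 4 overlapped gland 2, and the log2 fold change was -1.83 (SE 0.94, edgeR adjusted p = 0.237). Without papillary tumour 4 it was -2.87.

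**Figure D2:**
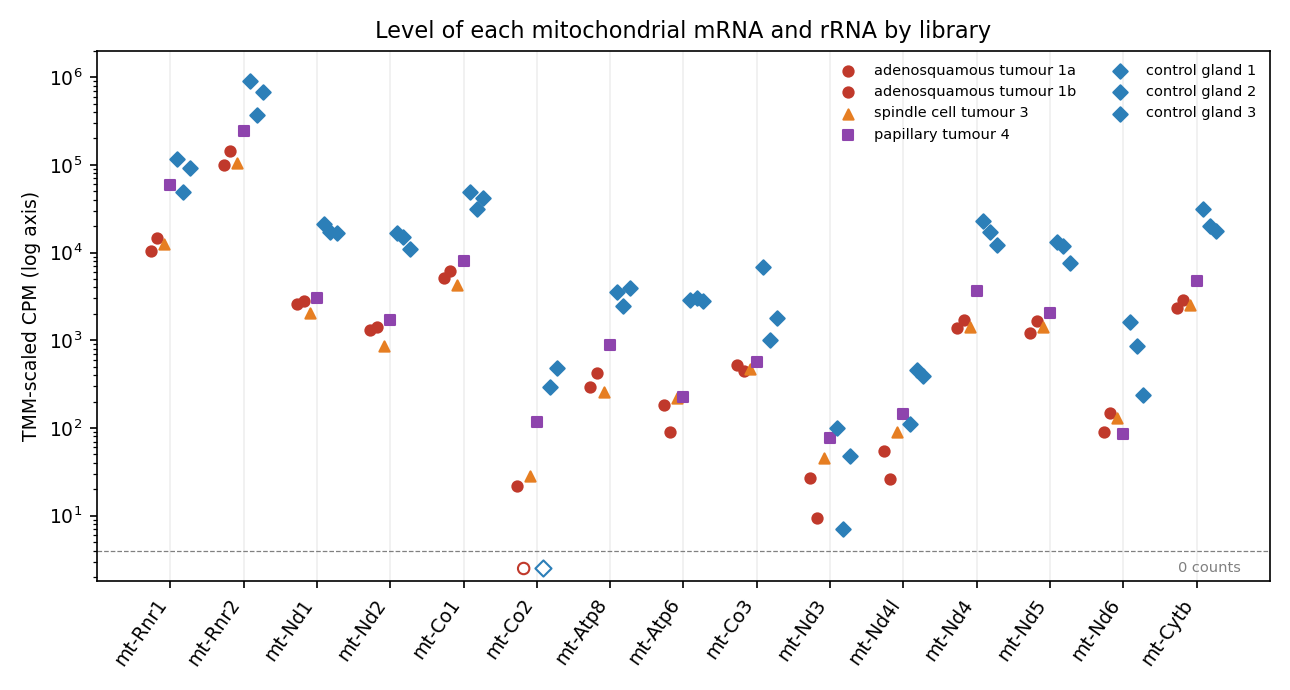
Level of each mitochondrial mRNA and rRNA (TMM-scaled CPM, log axis) in each library, tumours left of glands within each gene; open symbols under the dashed line stand for 0 counts. For 11 of the 15 genes every tumour lies below every gland, as for 13.2% of all genes tested; mt-Rnr1, mt-Co2, mt-Nd3 and mt-Nd4l overlap.

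The transfer RNA genes were almost empty. Across 7 libraries and 22 tRNA genes there were 2 counts, both of mt-Tq, the glutamine tRNA, in gland 1. The tRNA genes are 59 to 75 bases long, no longer than 1 read of 75 bases. A count of 0 allows up to 3 counts, or 1.05e-05% to 5.53e-05% of all counts in the tumour libraries and 8.42e-06% to 8.80e-06% in glands 2 and 3. No ratio of tRNA to mRNA was computed from these counts, and they say nothing of tRNA levels. The gene with the 2 counts, at chrM:3772-3842 on the minus strand, and the longest tRNA gene, the leucine tRNA mt-Tl1 at chrM:2676-2750 on the plus strand between mt-Rnr2 and mt-Nd1, show how short these genes are.
mt-Tq: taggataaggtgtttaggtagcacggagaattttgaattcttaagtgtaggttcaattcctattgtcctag
mt-Tl1: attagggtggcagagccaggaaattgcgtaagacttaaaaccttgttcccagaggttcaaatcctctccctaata

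Most counts of mt-Co2 and mt-Atp6, and a changing part of mt-Co3, mt-Nd3 and mt-Nd4l, stood on the row of the nuclear copy. Gm28661 held 98.8%, 100%, 98.2% and 96.8% of the counts of mt-Co2 and copy in tumours 1a, 1b, 3 and 4, against 100%, 97.5% and 97.0% in glands 1, 2 and 3. Gm10925 held 86.7% to 96.4% of the counts of mt-Atp6 and copy in tumours and 81.7% to 86.2% in glands, so every tumour gave more to the copy than any gland. For mt-Nd3 the part in Gm28438 was 80.4%, 92.7%, 52.6% and 77.9% in the tumours, against 90.8%, 98.9% and 96.5% in the glands.

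The divisions of mt-Co3 and mt-Nd4l varied widely within groups. Gm28437 held 65.0%, 74.9%, 65.0% and 84.9% of mt-Co3 and copy in tumours 1a, 1b, 3 and 4, against 27.9%, 87.0% and 86.2% in glands 1, 2 and 3. Gm10222 held 58.8%, 84.8%, 31.0% and 51.0% of mt-Nd4l and copy in the tumours, against 91.2%, 70.2% and 65.8% in the glands. Gland 1 stood apart from glands 2 and 3 in both, low for mt-Co3 and high for mt-Nd4l. The copies of mt-Co1 and mt-Nd4 took less, 12.999% to 17.3% in tumours and 8.89% to 13.1% in glands for mt-Co1, and at most 0.127% in tumours and 2.00% in glands for mt-Nd4.

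Values that are not whole numbers occur where the authors' estimate divided reads between genes. For mt-Co1, mt-Atp6, mt-Co3, mt-Nd3, mt-Nd4l and mt-Nd4 the deposited value was not whole in 7 of 7 libraries, for mt-Co2 in 5, for mt-Nd2 in 3 and for mt-Rnr2 in 1. It was whole in all 7 for mt-Nd1, mt-Atp8, mt-Nd5, mt-Nd6, mt-Cytb and mt-Rnr1, within a tolerance of 1e-09. All 7 copies together held 0.806%, 1.03%, 0.699% and 1.32% of all counts in tumours 1a, 1b, 3 and 4, against 2.32%, 3.29% and 3.28% in glands 1, 2 and 3. A read cannot tell whether it came from mitochondrial DNA or from an identical nuclear copy, so the sum of gene and copy is the quantity that does not depend on the division.

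**Figure D3:**
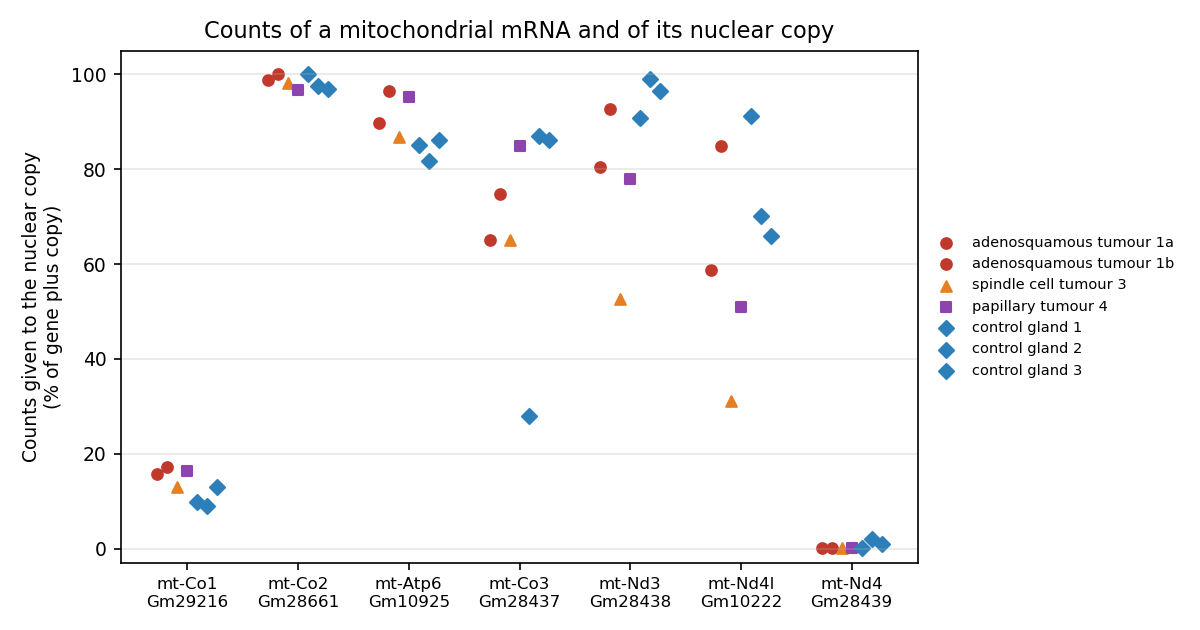
Part of the counts of gene plus copy that stood on the nuclear copy (%, y axis) for 7 mitochondrial mRNAs, one point per library, tumours left of glands. The copy holds over 96% of mt-Co2 and under 3% of mt-Nd4 in every library; mt-Co3, mt-Nd3 and mt-Nd4l spread widely.

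With each copy added to its gene, an alternative chosen after the counts were seen, all 13 mRNAs were lower in tumours, where 4.56% of the 14142 genes tested were lower. Their log2 fold changes then ran from -3.44 to -2.28, with a median of -2.82. The mt-Nd3 sum was 136, 127, 96.9 and 352 CPM in tumours 1a, 1b, 3 and 4, against 1092, 674 and 1348 CPM in glands 1, 2 and 3. The overlap seen in the mt-Nd3 row was gone, and the log2 fold change was -2.54 (SE 0.54, edgeR adjusted p = 0.0323). The mt-Co2 sum was 1795, 2287, 1590 and 3650 CPM in the tumours, against 15808, 11833 and 16120 CPM in the glands, with a log2 fold change of -2.65 (SE 0.53, edgeR adjusted p = 0.0280).

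The mt-Atp6 sum was 1758, 2537, 1640 and 4701 CPM in tumours 1a, 1b, 3 and 4, against 19132, 16573 and 20440 CPM in glands 1, 2 and 3. Its log2 fold change of -2.82 (SE 0.60, edgeR adjusted p = 0.0328) was close to that of its overlapping neighbour mt-Atp8 and smaller than the -4.03 of the gene row. The sums of mt-Co1, mt-Co3, mt-Nd4l and mt-Nd4 gave log2 fold changes of -2.70, -2.28, -2.86 and -3.11, with edgeR adjusted p of 0.0422, 0.0477, 0.0111 and 0.0266. In all 7 sums every tumour lay below every gland, as for 13.2% of all genes tested without copies added. The number that passed again depended on single libraries: it was 2 without gland 1, 2 without gland 2, 1 without gland 3, 2 without tumour 1a, 1 without tumour 1b, 2 without spindle cell tumour 3 and 12 without papillary tumour 4. Over all genes 237, 382, 73, 529, 222, 343 and 771 were lower in these fits, in the same order. With gland 2 as the only control the median log2 fold change of the 13 mRNAs was -2.76. The 6 mRNAs with no close copy, mt-Nd1, mt-Nd2, mt-Atp8, mt-Nd5, mt-Nd6 and mt-Cytb, were all lower, at -3.44 to -2.79.

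Per kilobase of gene, the sums also changed the order of the mRNAs. As tabulated, mt-Co1 led with a mean level of 3834 CPM per kb in tumours and 26371 in glands, and mt-Co2, at 61.3 in tumours and 379 in glands, was among the 2 lowest in both groups. With copies added, mt-Co2 stood at 3407 CPM per kb in tumours and 21326 in glands, mt-Atp6 at 3904 in tumours and 27482 in glands, and mt-Co1 at 4559 in tumours and 29535 in glands. The lowest mRNAs were then mt-Nd3, mt-Nd4l and mt-Nd6, with means of 512, 614 and 218 CPM per kb in tumours and 2982, 4436 and 1737 in glands. Between the rRNAs, mt-Rnr2 exceeded mt-Rnr1, with 92844 and 25188 CPM per kb in tumours and 410020 and 89656 in glands.

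Within the mitochondrial counts, tumours had fewer mRNA counts for each rRNA count. There were 13.8, 11.3, 11.9 and 8.43 mRNA counts per 100 rRNA counts in tumours 1a, 1b, 3 and 4, against 16.8, 28.8 and 15.1 in glands 1, 2 and 3. The groups did not overlap, gland 2 was far above the other glands, and papillary tumour 4 was the lowest tumour. The mean log2 ratio differed by -0.79 (exact permutation p = 0.0571, adjusted over 3 ratios 0.171), and by -0.72 with copies added.

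The ratio of the rRNAs set the papillary tumour apart. mt-Rnr1 stood at 10.4, 10.2, 11.9 and 24.4 counts per 100 mt-Rnr2 counts in tumours 1a, 1b, 3 and 4, against 13.1, 13.01 and 13.5 in glands 1, 2 and 3. The glands lay close together, at 13.2 ± 0.253 (SD, n = 3), with the other 3 tumours below all of them and papillary tumour 4 far above. The mean log2 ratio differed by 0.01 (exact permutation p = 0.914), and by -0.29 without papillary tumour 4. mt-Nd6, from the light strand, stood at 7.43, 8.78, 9.10 and 4.21 counts per 100 counts of its heavy-strand neighbour mt-Nd5 in the tumours, against 12.1, 7.14 and 3.14 in the glands. The groups overlapped, and the log2 ratio of mt-Nd6 to the 12 heavy-strand mRNAs differed by 0.29 (exact permutation p = 0.686). Because the library kit does not mark strand, these are ratios of counts on gene rows and cannot compare the strands.

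**Figure D4:**
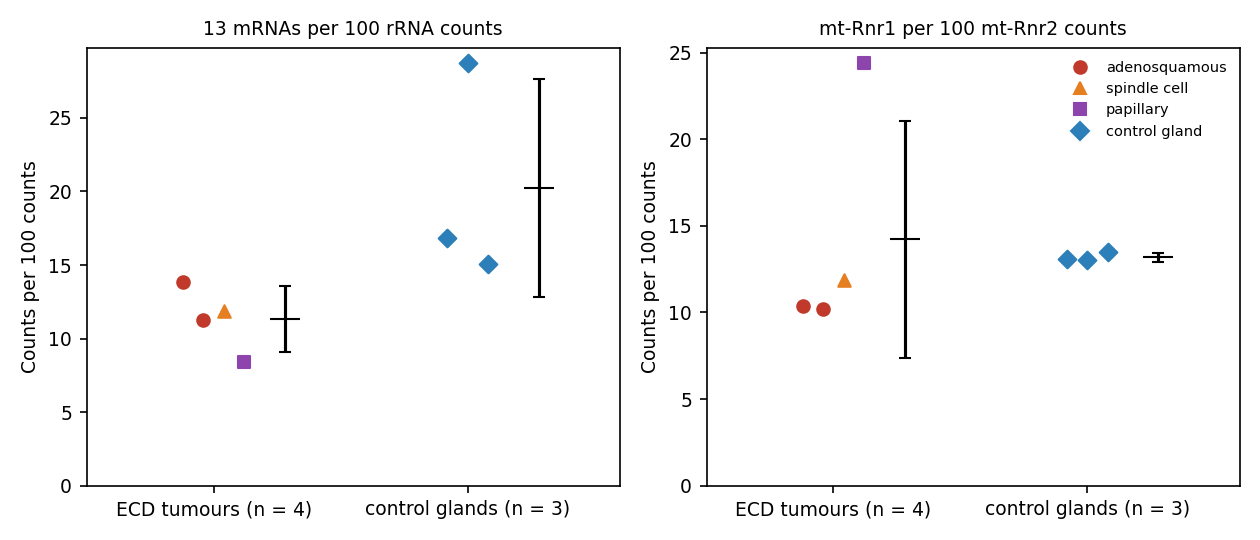
Counts of the 13 mRNAs per 100 rRNA counts (left) and of mt-Rnr1 per 100 mt-Rnr2 counts (right) for each tumour and gland; black bars give mean ± SD. Tumours reach 13.8 and glands start at 15.1 in the left panel; in the right panel papillary tumour 4 stands at 24.4 and all other libraries between 10.2 and 13.5.

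The division of mRNA counts among complexes overlapped between groups for each complex. Complex I genes took 43.4% ± 0.833 of mRNA counts in tumours and 45.9% ± 5.45 in glands (SD, n = 4 and 3). Complex III took 17.1% ± 1.63 in tumours and 16.8% ± 1.798 in glands, and complex IV 35.99% ± 1.54 in tumours and 32.5% ± 5.50 in glands. Complex V took 3.47% ± 0.670 in tumours and 4.69% ± 1.04 in glands. The exact permutation p over these 4 shares were 0.571, 0.971, 0.343 and 0.114, or 0.457 to 0.971 after adjustment. Gland 2 had the highest complex I share, 51.9%, and the lowest complex IV share, 26.9%, of all libraries. These shares are of the gene rows as tabulated, without the counts that stood on the copies. With copies added, complexes I, III, IV and V took means of 31.8%, 12.1%, 44.5% and 11.6% in tumours. In glands they then took 35.8%, 12.7%, 39.1% and 12.4%, and the groups again overlapped for each complex.

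Of the 13 single mRNAs, mt-Nd2 and mt-Atp6 had a lower share of the mRNA counts in every tumour than in any gland. mt-Nd2 took 8.68%, 7.94%, 6.15% and 6.68% in tumours 1a, 1b, 3 and 4, against 9.88%, 12.5% and 9.40% in glands 1, 2 and 3. mt-Atp6 took 1.19%, 0.512%, 1.57% and 0.884% in the tumours, against 1.68%, 2.502% and 2.42% in the glands. Each gave exact permutation p = 0.0571, or 0.371 adjusted over the 13 mRNAs. With copies added the mt-Nd2 shares still did not overlap, at 4.396% to 6.38% in tumours and 6.46% to 9.58% in glands, whereas the mt-Atp6 shares did, at 8.51% to 12.2% in tumours and 9.01% to 12.1% in glands.

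The 2 adenosquamous tumours were the only type with more than 1 library and were also set against the 3 glands alone. All 15 genes had negative log2 fold changes, from -4.57 to -1.598, as had 51.4% of all genes. By edgeR's quasi-likelihood test 5 of the 15 passed as lower, mt-Nd2, mt-Atp8, mt-Atp6, mt-Nd4 and mt-Nd5, and 0 as higher, where 5.36% of the 14708 genes tested were lower and 5.02% higher. Their log2 fold changes were -3.47, -3.27, -4.48, -3.58 and -2.999. With copies added 8 passed, where 5.36% of all genes were again lower. No more than 2 passed when any 1 gland was left out: 2 without gland 1, 2 without gland 2, and 0 without gland 3. Over all genes 371 of 16448, 855 of 13845 and 0 of 14034 were lower in these fits, in the same order. Without tumour 1a or tumour 1b 1 adenosquamous library remained, and the median log2 fold change of the 13 mRNAs was -3.02 and -3.33. These glands are the same libraries as in the comparison of all tumours, so the 2 sets of fold changes are not independent. Spindle cell tumour 3 and papillary tumour 4 are single libraries, and their values given above have no replicate check.

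Some nuclear genes for subunits of the same complexes were lower too, and the median of all of them was nearer to 0. Of 77 nuclear-encoded subunits of complexes I to V tested, 16 passed as lower and 0 as higher, where 4.57% of all genes were lower, and 70 of the 77 had negative fold changes. Their median log2 fold change was -0.98, against -2.81 for the mitochondrial mRNAs and 0.12 for all genes. The number lower moved with single libraries, to 4 without gland 1, 7 without gland 2, 2 without gland 3, 8 without tumour 1a, 6 without tumour 1b, 8 without spindle cell tumour 3 and 35 without papillary tumour 4. In the same order, 238, 384, 74, 530, 223, 342 and 774 of all genes were lower in these fits. As given above, summed fat markers were lower in every tumour than in any gland, while summed muscle markers overlapped through gland 2. The part of fat and muscle in the counts of nuclear subunits was not tested.

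Against the 4.57% of all genes that were lower, nuclear complex I had 8 of 36 subunits lower, with a median of -1.09. Ndufs1, the largest subunit of the arm that binds NADH, was at 36.8, 33.3, 48.1 and 41.6 CPM in tumours 1a, 1b, 3 and 4, against 185, 121 and 155 CPM in glands 1, 2 and 3. Its log2 fold change was -1.94 (SE 0.25, edgeR adjusted p = 0.0101), and Ndufb10, an accessory subunit, had -1.69 (adjusted p = 0.0227). In complex II, which has no mitochondrial gene, 2 of 4 were lower, Sdha, the flavoprotein, at -2.06 (edgeR adjusted p = 0.00904) and Sdhb, the iron-sulfur subunit, at -1.55 (adjusted p = 0.0151).

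Again beside 4.57% of all genes, complex III had 2 of 9 nuclear subunits lower, with a median of -1.004. Uqcrb, the ubiquinone-binding subunit, was at 49.4, 43.8, 63.6 and 33.9 CPM in tumours 1a, 1b, 3 and 4, against 622, 322 and 247 CPM in glands 1, 2 and 3. It had the lowest log2 fold change of the nuclear subunits, -3.06 (SE 0.41, edgeR adjusted p = 0.0103), and Uqcrc2, a core protein, had -1.68 (adjusted p = 0.0248). Complex IV had 2 of 11 lower, the small accessory subunits Cox6c at -1.95 (edgeR adjusted p = 0.0188) and Cox7b at -1.22 (adjusted p = 0.0449), with a median of -0.96. Complex V had 2 of 17 lower, the small membrane subunit Usmg5 at -1.82 (edgeR adjusted p = 0.0143) and the stalk subunit Atp5f1 at -1.16 (adjusted p = 0.0441), with a median of -0.76.

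**Figure D5:**
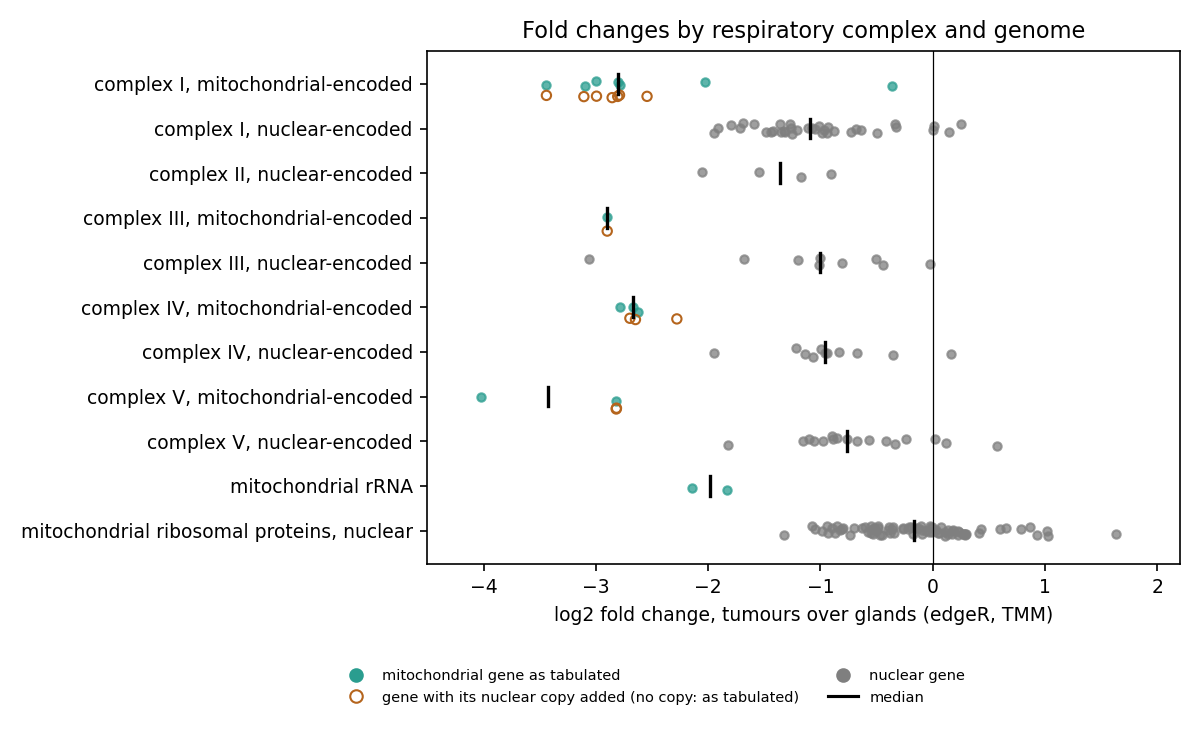
Log2 fold change of tumours over glands (x axis, edgeR with TMM) for each mitochondrial gene, each nuclear-encoded subunit and each nuclear mitochondrial ribosomal protein tested; black ticks are medians of the tabulated genes. Open circles show the mitochondrial genes with their copies added, between -3.44 and -2.28; of the nuclear subunits Uqcrb, at -3.06, alone reaches that range.

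Within each library, the ratio of mitochondrial-encoded to nuclear-encoded counts of a complex needs no scaling between libraries, and it was lower in every tumour than in any gland for all 4 complexes. In complex I there were 10.5, 16.9, 8.25 and 11.9 mitochondrial counts per nuclear count in tumours 1a, 1b, 3 and 4, against 46.4, 46.4 and 28.7 in glands 1, 2 and 3. In complex III there were 8.82, 14.9, 7.32 and 13.04 in the tumours, against 27.9, 24.05 and 22.2 in the glands. Tumour 1b had the highest ratio of the tumours for both. In complex IV there were 15.3, 27.1, 11.8 and 14.8 in the tumours, against 68.7, 43.9 and 49.3 in the glands. In complex V there were 0.523, 0.748, 0.403 and 0.759 in the tumours, against 3.497, 3.11 and 2.99 in the glands. The mean log2 ratios differed by -1.78, -1.22, -1.69 and -2.44 for complexes I, III, IV and V, and each gave exact permutation p = 0.0571, also adjusted over the 4. With copies added they differed by -1.79, -1.22, -1.57 and -2.03.

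The nuclear genes that copy and read mitochondrial DNA mostly did not pass, and the 1 lower gene in each list below stands beside 4.57% of all genes lower, a share near that of 1 in 17. Of 10 mitochondrial transcription genes 1 was lower, Mterf2, a factor of the mitochondrial terminator family, at -2.29 (edgeR adjusted p = 0.0252). Polrmt, the mitochondrial RNA polymerase, was at 11.2, 8.16, 9.26 and 14.5 CPM in tumours 1a, 1b, 3 and 4, against 0.707, 7.53 and 8.68 CPM in glands 1, 2 and 3, with a log2 fold change of 0.88 (edgeR adjusted p = 0.410). Gland 1 was low and the other glands lay close to the tumours. Tfam, which packages mitochondrial DNA and opens its promoters, was at 10.8 to 16.3 CPM in tumours and 16.4 to 18.8 CPM in glands, with -0.41 (edgeR adjusted p = 0.305). Of 17 genes of mitochondrial DNA replication and nucleotide supply 1 was lower, Rrm2b, a ribonucleotide reductase subunit, at -1.30 (edgeR adjusted p = 0.0379). The helicase Twnk and the polymerase Polg had -0.01 and 0.11 (edgeR adjusted p = 0.990 and 0.768).

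Genes for handling and translating the mitochondrial transcripts mostly did not pass either, and the single calls below are near or under the shares of all genes, 3.9% higher and 4.57% lower. Of 21 RNA processing and turnover genes 0 passed in edgeR, at a median of -0.36. An unadjusted p under 0.05, in either direction, was found for 4 of the 21 and for 4093 of all 14149 genes. DESeq2 called 2 of the 21 lower, beside 1596 of all 14149 genes. Trmt10c, a subunit of the mitochondrial enzyme that cuts at the 5′ ends of tRNAs, had the smallest edgeR p of the 21, with -0.75 (edgeR unadjusted p = 0.0135, adjusted 0.0877). Lrpprc and Slirp, which together bind and stabilise mitochondrial mRNAs, had -0.38 and -0.36 (edgeR adjusted p = 0.294 and 0.649). Of 26 RNA modification and ribosome assembly genes 1 was higher and 0 lower. This was Pus1, which makes pseudouridine in RNA, at 12.9, 10.3, 14.4 and 11.4 CPM in tumours 1a, 1b, 3 and 4, against 3.18, 5.26 and 4.98 CPM in glands 1, 2 and 3 (log2 fold change 1.43, SE 0.32, edgeR adjusted p = 0.0374). Of 80 mitochondrial ribosomal protein genes 1 was lower, Mrps15 of the small subunit, at -1.32 (edgeR adjusted p = 0.0151), and the median was -0.17. DESeq2 called 11 of the 80 lower, again beside 1596 of all 14149 genes. The count in edgeR was 0 without gland 3 or without tumour 1b, where 74 and 223 of all genes were lower.

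Regulators of mitochondrial biogenesis and proteins that track mitochondrial mass gave no calls in edgeR when all tumours were set against the glands. Of 9 biogenesis regulators 0 passed and 2 had an unadjusted p under 0.05, as had 4093 of all 14149 genes, in either direction. Ppargc1a, the coactivator that is abundant in brown fat and muscle, was at 1.45, 2.59, 8.97 and 0.0348 CPM in tumours 1a, 1b, 3 and 4, against 47.4, 26.5 and 52.6 CPM in glands 1, 2 and 3. All tumours lay below all glands, with a log2 fold change of -3.71 (SE 1.20, unadjusted p = 0.0157, edgeR adjusted p = 0.0947). Both DESeq2 and limma-voom called 1 regulator lower, where they called 1596 and 893 of all 14149 genes lower. Of 13 genes for mitochondrial mass 0 passed, 5 had an unadjusted p under 0.05 and DESeq2 called 2 lower, beside the same 4093 and 1596 of all 14149 genes. Cs, citrate synthase, was at 95.5, 62.2, 91.4 and 229.5 CPM in the tumours, against 190, 278 and 285 CPM in the glands, with papillary tumour 4 within the range of the glands (log2 fold change -1.07, edgeR adjusted p = 0.179). Vdac1, the outer membrane channel, had -1.12 (edgeR adjusted p = 0.122), and the import receptor Tomm22, with the smallest p of this list, had 1.11 (edgeR unadjusted p = 0.0186, adjusted 0.103). In the adenosquamous tumours against glands 1 gene of each list passed as lower, where 5.36% of all genes were lower. These were Ppargc1a at -4.47 (edgeR adjusted p = 0.0183) and Cs at -1.73 (edgeR adjusted p = 0.0443).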

How the data were processed

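The deposited tables give, per gene and library, an estimated count made by the authors, in a column headed TPM. The sums differ between libraries, from 5148436 to 35631302, so the values were read as estimated counts and rounded to whole numbers. Alignment and counting tools are listed without roles: STAR 2.5, RSEM 1.3 and limma on GRCm38, per the submitters' processing notes, with no annotation release in the sources used here. Per the labels' protocols, RNA was taken with Trizol, treated with DNase I and made into TruSeq v2 libraries, read as pairs of 75 bases. Positions and transcript sequences came from GENCODE M21 on GRCm38. Nuclear copies were sought by aligning transcripts at 90% identity or more.

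Groups came from the labels. The fit over all genes used edgeR 4.0.16 under R 4.3.3 (TMM, quasi-likelihood F test, filterByExpr with a minimum count of 10 and total of 15, two-sided, Benjamini-Hochberg over all genes, threshold 0.05). The SE is the log2 fold change divided by the square root of F. Shares and ratios were compared by exact permutation over samples (scipy 1.17.1). P-values measure the spread between these libraries, which the design text calls independent; no 2 libraries of a group were identical (chi-square per degree of freedom 85.0 to 374.9). Alternatives were DESeq2 1.42.0, limma-voom (limma 3.58.1), other scalings and filters, each library left out, gland 2 as the only control, and copies added. The planned ratio of tRNA to mRNA was not computed because the tRNA genes held 2 counts. All 321 memberships of the gene lists matched a row. Named genes were all 37 mitochondrial genes, 9 fixed nuclear genes and, for each list, up to 2 passing members by lowest adjusted p in the direction most took, or else the member with the lowest p. Marker genes and the nuclear copies were named outside this rule. The members and lists were chosen with earlier results of these data known. The fit was tested on simulated data.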

Additional observations from a re-analysis of the deposited data

Results flagged for a closer look

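Each group of 4 tumours was searched for a library whose gap to its nearest neighbour was, as a part of the group's range, above Dixon's 95% critical value, over 50 measures. Chance gives about 1 such group in 20, the measures overlap, and the 3 that passed all concern papillary tumour 4. mt-Rnr1 stood at 58921 CPM there, against 10318 to 14612 CPM in the other tumours. mt-Rnr1 counts per 100 mt-Rnr2 counts were 24.4, against 10.2 to 11.9. mt-Nd4 stood at 3640 CPM, against 1388 to 1706 CPM. The series has 1 papillary library, so whether papillary tumours share these values was not tested.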

How the results depend on the processing

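The mitochondrial share of the library stayed lower in tumours under every alternative run for it, by differences of -36.2 to -14.4 percentage points. The number of the 15 genes lower was 10, and it was 13 with DESeq2, 11 with limma-voom, 5 with no filter, 0 with gland 2 as the only control and 1 to 8 with 1 library left out. With copies added it was 13, and it was 15 with DESeq2, 14 with limma-voom, 6 with no filter, 0 with gland 2 as the only control and 1 to 12 with 1 library left out. In the adenosquamous comparison it was 5, and it was 13 with DESeq2, 10 with limma-voom, 9 with at least 10 counts in every library, 8 with copies added and 0 to 2 with 1 gland left out. Over all genes in tumours against glands, 647 were lower with edgeR, 1596 with DESeq2, 893 with limma-voom, 534 with no filter and 74 to 774 with 1 library left out. Against the adenosquamous tumours they were 788 with edgeR, 1811 with DESeq2, 697 with limma-voom and 672 with at least 10 counts in every library. The cause of these moves was not tested. A group left with 1 library was assumed to vary like the other group. Scaling by library totals left 9 of 15 lower but moved the median of all genes to 1.06 and that of the 13 mRNAs to -1.92, and 348 genes were then lower and 3532 higher, against 647 and 552 with TMM. The 16 nuclear subunits called lower were 40 with DESeq2, 25 with limma-voom, 9 with no filter, 2 with library totals, 0 with gland 2 as the only control and 2 to 35 with 1 library left out. Of the 15 mitochondrial mRNA and rRNA genes, all but mt-Nd3 kept their sign under every alternative run for them. mt-Co2, listed at 0 in 2 libraries, has no value with at least 10 counts in every library, and single nuclear genes were not rerun. mt-Nd3 had 0.45 with limma-voom, 0.73 with library totals, 2.44 with gland 2 as the only control and -1.01 to 0.58 with 1 library left out. With 1 library left out, the differences in log2 ratio of mt-Rnr1 to mt-Rnr2 (-0.29 to 0.13) and of mt-Nd6 to the heavy-strand mRNAs (-0.38 to 0.73) crossed 0. So did the share differences, in percentage points, of complex I (-4.86 to 0.48) and complex III (-0.59 to 1.20). Those of mt-Co2 (-0.13 to 0.083), mt-Atp8 (-0.43 to 0.39) and mt-Nd6 (-0.15 to 0.22) crossed 0 as well. With copies added the share differences of complex III, mt-Co2 and mt-Nd4l were -0.57, 0.81 and -0.050. The ratios of mitochondrial to nuclear subunits stayed lower in tumours under every alternative run. At 0 counts the tRNA genes cannot show a difference. No paired analysis was possible because the labels pair no tumour with a gland.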
